A study of Mus musculus with 8 samples.

Results

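B cell transcripts were followed in RNA prepared from mouse splenic T cells. The set comprised 31 genes of the B lineage, named one by one, out of 15133 genes tested on the arrays. Each gene was read from the probe that carried a RefSeq transcript of it and had the highest mean signal over the 8 arrays. All 31 genes had such a probe, and all 31 probes were well above background on all 8 arrays, so every member passed the filter on dim probes. Of the 31 genes, 19 are used chiefly by B cells among blood and spleen cells and are called restricted below. The other 12, called shared, are also used by myeloid cells, dendritic cells, precursors or other lymphocytes (Btk, Syk, Lyn, Cd24a, Fcgr2b, Mef2c, Cd37, Pou2f2, Spib, Bcl11a, Tnfrsf13b and Ly6d).

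The samples came from mice lacking Lsp1 (Lsp1-/-, KO), backcrossed onto C57BL/6 for 10 generations, and from C57BL/6 mice with intact Lsp1 (Lsp1+/+, WT). The genotypes were matched by sex and age, at 8 to 12 weeks. Lsp1 codes for leukocyte-specific protein 1, which binds F-actin in many leukocytes, B cells included. T cells were either stimulated with CD3 and CD28 antibodies for 6 h or kept in medium, which gave 4 groups of 2 one-colour arrays: stimulated KO, stimulated WT, KO in medium and WT in medium. The Lsp1 deficiency was present throughout the animal, not in T cells alone. Neither the way T cells were isolated from the spleen nor their purity is given in the sources used here.

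B cells recognise antigen through surface immunoglobulin coupled to the signalling chains CD79A and CD79B. Kinases such as LYN, SYK and BTK and the adaptor BLNK carry the signal inward, and coreceptors such as CD22 and FcγRIIB restrain it. The lineage is held in place by the transcription factors PAX5 and EBF1. The spleen is rich in B cells, so their transcripts can appear in RNA from other spleen cells. CD3 belongs to the T cell receptor complex and CD28 is a costimulatory receptor of T cells, so the antibodies used here address T cells and not the B cell antigen receptor.

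On the arrays, Lsp1 itself measured 3.69 and 3.65 in stimulated KO cells, 7.06 and 6.99 in stimulated WT cells, 3.64 and 3.48 in KO cells in medium and 7.48 and 7.24 in WT cells in medium. These and all levels below are log2 of the background-subtracted signal minus the 75th percentile of that array, so 0 is the level of that percentile, and levels of different probes cannot be set against each other. Lsp1 fell by 3.35 ± 0.13 in stimulated KO cells (limma, adjusted p = 0.00268) and by 3.79 ± 0.13 in KO cells in medium (limma, adjusted p = 0.00126). All 20 T cell markers examined were well above background on every array. Here ± is the standard error of a limma fit over all 8 arrays, and a gene was called at an adjusted p below 0.05 over all 15133 genes. Whether replicate arrays stem from separate animals is not in the labels, and the p-values thus reflect the spread of these samples alone, which may be technical. With 2 arrays against 2, an exact permutation test of 1 gene can reach at smallest p = 0.333. All arrays lay on 1 slide, with stimulation split by slide row and genotype by slide column, and the effects of group and position cannot be told apart.

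Promoter windows are shown for 4 of the 5 members that passed the test between stimulated and medium cells in at least 1 genotype, because their transcripts changed within 6 h. Fcer2a encodes CD23, the low-affinity IgE receptor, and was higher after stimulation. Fcrla encodes an Fc receptor-like protein inside B cells, Fcmr the IgM Fc receptor and Tnfrsf13b the receptor TACI, and these 3 were lower. Each window runs from 250 bases before to 50 after a transcript start, 5′ to 3′ on the gene's strand, from RefSeq on GRCm38.p6. The Fcer2a window is chr8:3690812-3691111 (minus strand), 1 of 3 listed for the gene. It was the window of the gene with the most matches to the 3 motifs described below, and was chosen for that. Those of Fcrla, Fcmr and Tnfrsf13b are chr1:170927534-170927833 (minus), chr1:130865527-130865826 (plus) and chr11:61126505-61126804 (plus). Capitals mark a match to the STAT6-type motif, TTC and GAA spaced by 4 bases, whose first base lies at -168 from the start.
Fcer2a: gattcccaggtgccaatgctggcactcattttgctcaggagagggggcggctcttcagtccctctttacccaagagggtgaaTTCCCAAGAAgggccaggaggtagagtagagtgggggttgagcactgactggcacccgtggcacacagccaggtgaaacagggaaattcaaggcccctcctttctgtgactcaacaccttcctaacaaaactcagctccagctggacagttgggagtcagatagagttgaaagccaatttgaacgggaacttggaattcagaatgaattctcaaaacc
Fcrla: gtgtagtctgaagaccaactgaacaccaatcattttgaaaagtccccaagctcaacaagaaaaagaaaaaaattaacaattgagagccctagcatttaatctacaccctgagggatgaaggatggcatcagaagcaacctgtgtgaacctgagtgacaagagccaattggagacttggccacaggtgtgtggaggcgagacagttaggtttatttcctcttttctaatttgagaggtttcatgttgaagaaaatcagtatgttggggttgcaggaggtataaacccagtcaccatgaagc
Fcmr: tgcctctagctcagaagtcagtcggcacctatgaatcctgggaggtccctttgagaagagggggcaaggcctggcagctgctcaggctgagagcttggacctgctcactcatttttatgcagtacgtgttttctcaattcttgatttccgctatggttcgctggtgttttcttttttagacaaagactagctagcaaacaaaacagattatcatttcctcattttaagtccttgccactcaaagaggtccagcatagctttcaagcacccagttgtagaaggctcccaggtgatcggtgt
Tnfrsf13b: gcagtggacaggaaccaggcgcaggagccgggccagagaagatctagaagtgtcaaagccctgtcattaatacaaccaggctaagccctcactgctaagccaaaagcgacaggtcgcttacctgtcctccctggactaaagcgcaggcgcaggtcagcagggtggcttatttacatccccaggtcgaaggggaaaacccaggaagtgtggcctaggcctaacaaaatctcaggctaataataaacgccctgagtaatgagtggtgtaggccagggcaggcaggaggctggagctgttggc

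On both strands, the STAT6-type motif was present in 6.95% of all 32851 promoter windows of the RefSeq table. Among the 32 windows of the 25 members with a window it was present in 1, the Fcer2a window shown. The other Fcer2a windows lacked it. The octamer ATGCAAAT, the site that POU2F2 and its coactivator POU2AF1 recognise, was present in 1.74% of all windows and in those of Blnk and Vpreb3. The EBF-type motif, TCCC and GGGA spaced by 2 bases, was present in 0.904% of all windows and in that of Cd22. The Fcrla, Fcmr and Tnfrsf13b windows held none of the 3 motifs. A match describes letters and not a bound site. Cd79b, Blk, Lyn, Ms4a1, Cd24a and Ly6d had no window in the table.

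The first comparison asked how B cell transcripts differed between KO and WT cells. The restricted transcripts lay lower in KO cells: all 19 had a negative log2 difference, both in stimulated cells and in medium, with medians of -0.55 and -0.48. The strongest differences were those of Ms4a1, Ebf1, Fcmr and, among the shared genes, Spib, which were between 1.82- and 2.26-fold lower. In stimulated cells and in medium, 17 and 16 of 20 T cell genes had a negative difference, against 59.1% and 60.2% of all genes. So did 9 and 8 of 11 natural killer cell genes. The median differences were -0.10 and -0.16 for T cell and -0.20 and -0.29 for natural killer cell genes. Relative to the WT medium mean, the T cell median on KO replicate 2 was -0.35 stimulated and -0.39 in medium. On KO replicate 1 it was 0.01 and 0.07, above both WT arrays of the same condition (-0.26 and -0.11 stimulated, -0.03 and 0.03 in medium). The natural killer cell median lay below WT on both KO replicates in each condition. None of the 31 members passed the test. limma called 0 members in stimulated cells, where 0.0198% of all genes were called, and 0 in medium, where 0.00661% were called. At an unadjusted p below 0.05, 10 members were lower in stimulated KO cells, against 2.37% of all genes, and 9 were lower in KO medium, against 3.13% of all genes. No member was higher at that level in stimulated KO cells, against 2.65% of all genes, or in KO medium, against 2.59%, and no alternative setting of the fit called a member. Averaged over both conditions, limma called 0 members, with 0.00661% of all genes called, and 14 members were lower at an unadjusted p below 0.05, against 4.69% of all genes. Fewer B cells in a sample and less RNA of these genes per cell cannot be told apart in such bulk samples.

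**Figure D1:**
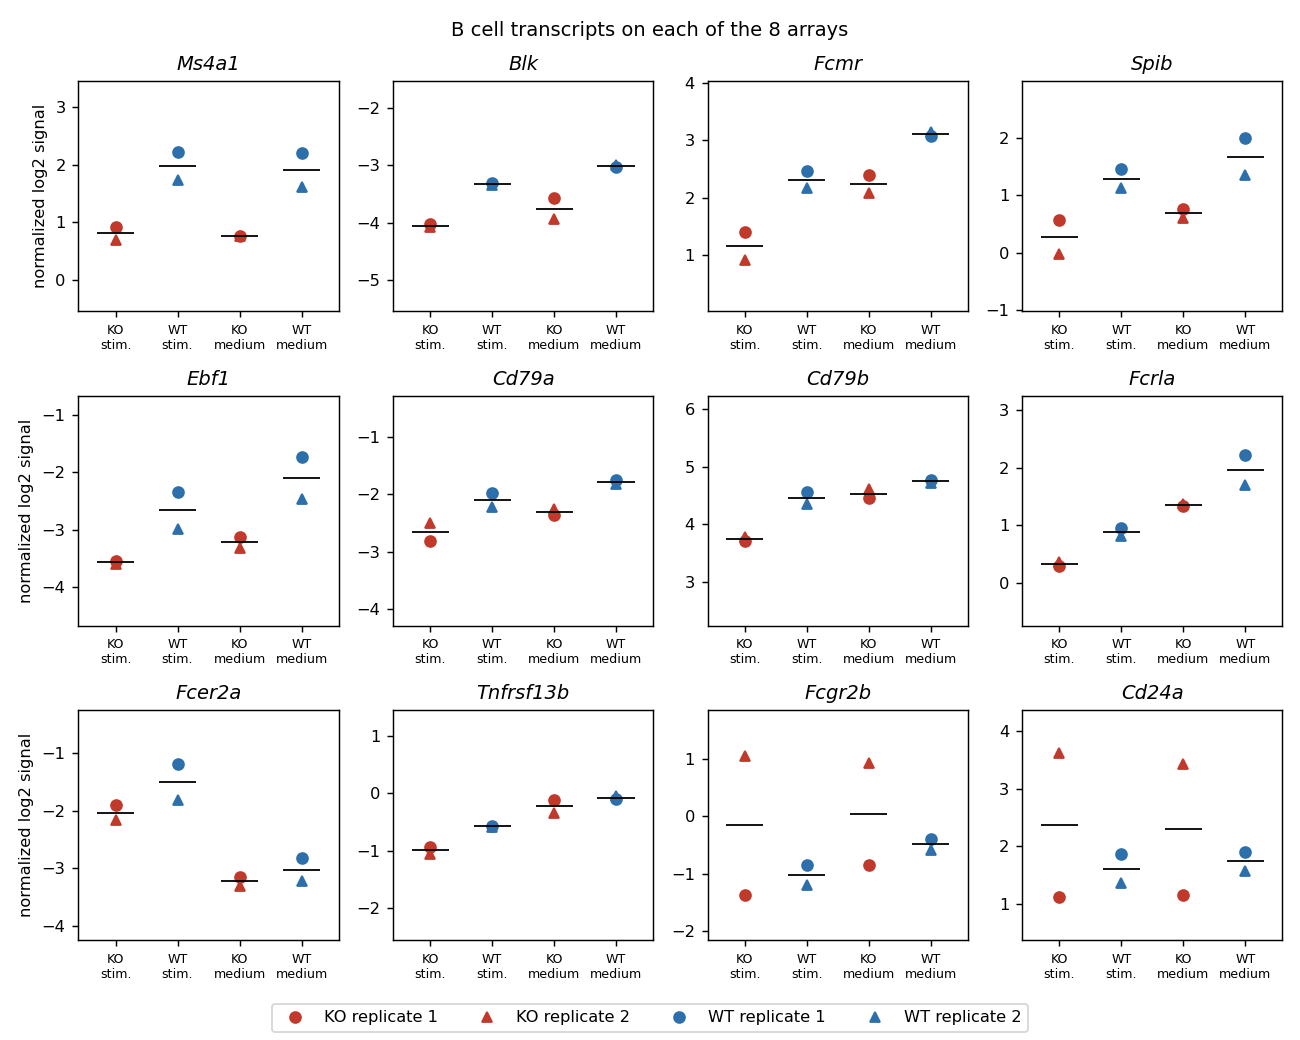
Normalized log2 signal of 12 members on each array, 1 panel per gene with its own offset and the same span, KO left of WT and stimulated left of medium; circles are replicate 1, triangles replicate 2 and lines the mean of the 2 arrays. Restricted genes such as Ms4a1 and Fcmr are lower on KO than on WT arrays of the same condition, whereas shared genes such as Cd24a and Fcgr2b are high on the KO replicate 2 arrays.

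Among the antigen receptor chains, Cd79b measured 3.71 and 3.79 in stimulated KO cells, 4.56 and 4.36 in stimulated WT cells, 4.45 and 4.62 in KO medium and 4.77 and 4.72 in WT medium. The KO arrays lay below the WT arrays in each condition without overlap. The difference was -0.71 ± 0.12 in stimulated cells, 1.64-fold, and -0.21 ± 0.12 in medium (limma, adjusted p = 0.337 and 0.737). Cd79a, its partner chain, measured -2.82 and -2.49 in stimulated KO cells, -1.98 and -2.22 in stimulated WT cells, -2.36 and -2.26 in KO medium and -1.75 and -1.83 in WT medium. Its difference was of similar size in both conditions, -0.56 ± 0.15 in stimulated cells and -0.52 ± 0.15 in medium (limma, adjusted p = 0.619 and 0.737). Cr2, the complement receptor that lowers the threshold of B cell activation, differed by -0.35 ± 0.26 and -0.48 ± 0.26, with KO below WT arrays only by a narrow margin in medium, and its second probe gave -0.08 and -0.41. Cd72, an inhibitory coreceptor, differed by -0.35 ± 0.24 in stimulated cells and -0.63 ± 0.24 in medium. Cd22, another inhibitory coreceptor, differed by -0.06 ± 0.17 in stimulated cells and -0.28 ± 0.17 in medium, and its stimulated groups overlapped. Of the 6 genes in this group, 4 were separated between KO and WT in both conditions, with KO lower, against 8.64% of all genes. The sixth was Fcgr2b, the inhibitory IgG receptor of B cells and myeloid cells, with differences of 0.86 ± 0.87 in stimulated cells and 0.52 ± 0.87 in medium.

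Blk encodes a SRC-family kinase used mainly by B cells. It measured -4.03 and -4.08 in stimulated KO cells, -3.31 and -3.34 in stimulated WT cells, -3.57 and -3.94 in KO medium and -3.03 and -2.99 in WT medium. All KO values lay below all WT values of both conditions. The difference was -0.73 ± 0.14 in stimulated cells and -0.75 ± 0.14 in medium (limma, adjusted p = 0.397 and 0.557), and averaged over both it was 1.67-fold with the lowest unadjusted p of the 31 members, 0.000317 (limma, adjusted p = 0.12). Bank1, a scaffold of B cell receptor signalling, also lay below WT on every KO array, by -0.58 ± 0.18 in stimulated cells and -0.52 ± 0.18 in medium. Ralgps2, an exchange factor for Ral proteins, lay below WT on both KO arrays within each condition, with small differences of -0.16 ± 0.11 and -0.15 ± 0.11. Blnk, the adaptor between SYK and its downstream enzymes, measured 2.93 and 3.27 in stimulated KO cells, 3.37 and 3.33 in stimulated WT cells, 3.69 and 3.88 in KO medium and 4.33 and 3.80 in WT medium. Its KO and WT values overlapped in medium, and the differences were -0.25 ± 0.21 and -0.28 ± 0.21. The 3 kinases shared with myeloid cells had the widest errors: Lyn differed by -0.29 ± 0.41 and -0.33 ± 0.41, Syk by 0.09 ± 0.49 and 0.03 ± 0.49, and Btk by 0.31 ± 0.67 and 0.22 ± 0.67, in stimulated cells and in medium. Thus 3 of 7 signalling genes were separated between genotypes in both conditions, with KO lower, against 8.64% of all genes.

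Among the transcription factors, Ebf1 measured -3.54 and -3.59 in stimulated KO cells, -2.35 and -2.98 in stimulated WT cells, -3.12 and -3.31 in KO medium and -1.74 and -2.46 in WT medium. Its difference was -0.90 ± 0.30 in stimulated cells, 1.87-fold, and -1.11 ± 0.30 in medium, 2.17-fold (limma, adjusted p = 0.77 and 0.737). Spib, an ETS factor of B cells and plasmacytoid dendritic cells, measured 0.57 and -0.01 in stimulated KO cells, 1.45 and 1.13 in stimulated WT cells, 0.76 and 0.61 in KO medium and 1.99 and 1.35 in WT medium. Its difference was -1.01 ± 0.29 in stimulated cells and -0.98 ± 0.29 in medium (limma, adjusted p = 0.636 and 0.737). For both factors, every KO array lay below every WT array of the same condition. Pax5, which commits cells to the B lineage, was the dimmest probe of the set, at -5.33 and -5.24 in stimulated KO cells, -4.34 and -5.01 in stimulated WT cells, -5.11 and -5.56 in KO medium and -4.34 and -5.09 in WT medium. Its difference was -0.61 ± 0.33 in stimulated cells and -0.62 ± 0.33 in medium, with groups in medium separated by a narrow margin and WT replicates far apart. Pou2af1 differed by -0.18 ± 0.15 and -0.17 ± 0.15. Pou2f2, the octamer-binding factor OCT2, measured 1.10 and 1.03 in stimulated KO cells, 0.75 and 0.98 in stimulated WT cells, 1.35 and 1.07 in KO medium and 1.19 and 1.29 in WT medium. It was the 1 member higher on both KO arrays than on both WT arrays in a condition, the stimulated one, against 13.2% of all genes, with a difference of 0.20 ± 0.15, while in medium the arrays overlapped at -0.03 ± 0.15. The second Pou2f2 probe gave 0.10 in stimulated cells and -0.24 in medium. Bcl11a and Mef2c, used by B cells and by myeloid or progenitor cells, differed by 0.25 ± 0.60 and 0.17 ± 0.37 in stimulated cells and by 0.26 ± 0.60 and 0.22 ± 0.37 in medium.

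Ms4a1, which encodes the B cell surface protein CD20, had the strongest difference of the 31 in each condition. It measured 0.91 and 0.69 in stimulated KO cells, 2.22 and 1.73 in stimulated WT cells, 0.76 and 0.76 in KO medium and 2.20 and 1.60 in WT medium. The difference was -1.17 ± 0.25 in stimulated cells, 2.26-fold, and -1.15 ± 0.25 in medium, 2.21-fold (limma, adjusted p = 0.401 and 0.616). Fcmr measured 1.40 and 0.92 in stimulated KO cells, 2.46 and 2.16 in stimulated WT cells, 2.40 and 2.08 in KO medium and 3.07 and 3.14 in WT medium. Its difference was -1.15 ± 0.21 in stimulated cells, 2.22-fold, and -0.86 ± 0.21 in medium, 1.82-fold (limma, adjusted p = 0.363 and 0.737). Fcrla measured 0.29 and 0.36 in stimulated KO cells, 0.95 and 0.82 in stimulated WT cells, 1.34 and 1.36 in KO medium and 2.21 and 1.70 in WT medium. All 3 genes were separated between KO and WT in each condition, Fcrla by -0.56 ± 0.18 in stimulated cells and -0.61 ± 0.18 in medium (limma, adjusted p = 0.767 and 0.737). Ly6d, a surface protein of the B lineage and of some other cells, was likewise separated, by -0.48 ± 0.21 and -0.36 ± 0.21.

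The remaining surface members did not separate in both conditions. Fcer2a measured -1.91 and -2.17 in stimulated KO cells, -1.19 and -1.82 in stimulated WT cells, -3.15 and -3.30 in KO medium and -2.82 and -3.23 in WT medium. It was lower on both stimulated KO arrays, by -0.53 ± 0.25, and overlapped in medium, at -0.21 ± 0.25. Fcrl1, an Fc receptor-like surface protein, measured -3.64 and -3.59 in stimulated KO cells, -3.35 and -3.54 in stimulated WT cells, -3.80 and -3.49 in KO medium and -3.37 and -3.82 in WT medium, and had no separation in medium at -0.05 ± 0.19. Cd37, a tetraspanin of mature B cells and other leukocytes, measured 3.91 and 3.55 in stimulated KO cells, 3.88 and 3.87 in stimulated WT cells, 4.08 and 3.87 in KO medium and 3.99 and 4.16 in WT medium. Its arrays overlapped in both conditions, and its 2 probes gave differences of opposite sign in medium, -0.10 and 0.09. Vpreb3, a protein of the early B cell receptor assembly, differed by -0.38 ± 0.32 in stimulated cells and -0.48 ± 0.32 in medium. Of the receptors of the survival factor BAFF, the 2 members lay lower on KO than on WT arrays in each condition. Of all genes, 8.64% did so. In medium both members were separated only by a narrow margin. Tnfrsf13c, the BAFF receptor, differed by -0.55 ± 0.26 in stimulated cells and -0.41 ± 0.26 in medium. Tnfrsf13b differed by -0.41 ± 0.12 and -0.15 ± 0.12, and its second probe gave -0.31 and -0.30.

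**Figure D2:**
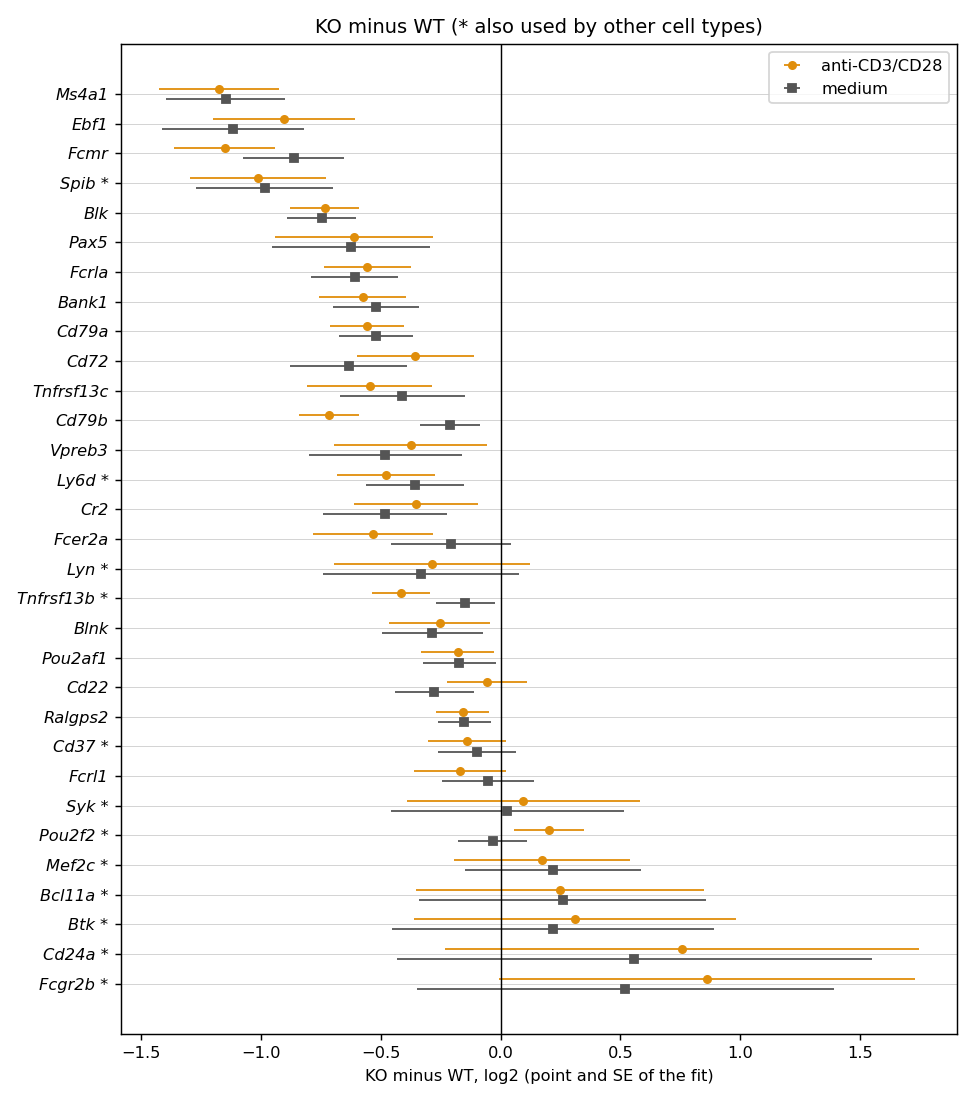
KO minus WT log2 difference of each member, with the stimulated value above the medium value and bars of 1 standard error of the limma fit. Ms4a1, Ebf1, Fcmr and Spib lie near -1, and the 5 genes with the widest bars (Cd24a, Fcgr2b, Btk, Bcl11a and Syk) are all shared with other cell types.

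Over the whole set, 20 of 31 members lay lower on both KO arrays than on both WT arrays in stimulated cells, against 24.8% of all genes, and 17 in medium, against 21.3% of all genes. In all, 16 did so in each condition, against 8.64% of all genes, and 0 lay higher in each condition, against 4.35% of all genes. Of these 16, 13 were among the 19 restricted genes and 3 (Spib, Ly6d and Tnfrsf13b) among the 12 shared genes. The shared genes had medians of 0.13 in stimulated cells and -0.0029 in medium. The median over all genes was -0.04 in stimulated cells and -0.06 in medium, and 59.1% and 60.2% of all genes had a negative difference. Summed over the 19 restricted genes, the level relative to the 75th percentile was 39.97 and 43.22 in stimulated KO cells, 64.66 and 56.78 in stimulated WT cells, 60.24 and 65.12 in KO medium and 88.65 and 74 in WT medium. The KO sums lay below the WT sums in each condition. These sums weigh bright probes most, here Cd79b and Blnk, at 4.77 and 4.33 on WT medium replicate 1. The KO medium sums overlapped the stimulated WT sums. The members and lists were chosen with these data known, so these counts describe the set and are no test of it.

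Of the 12 shared genes, 7 differed widely between the 2 KO replicates. Cd24a, a surface glycoprotein of B cells, granulocytes and red cell precursors, measured 1.12 and 3.62 in stimulated KO cells, 1.87 and 1.36 in stimulated WT cells, 1.15 and 3.44 in KO medium and 1.91 and 1.57 in WT medium. Fcgr2b measured -1.36 and 1.05 in stimulated KO cells, -0.84 and -1.19 in stimulated WT cells, -0.85 and 0.92 in KO medium and -0.39 and -0.58 in WT medium. KO replicate 2 was high and KO replicate 1 low for each gene, and the WT arrays lay between them. These genes were picked for display after their values were seen. In both conditions KO replicate 2 exceeded KO replicate 1 by more than 0.5 for 7 members, all of them shared (Cd24a, Fcgr2b, Btk, Bcl11a, Syk, Lyn and Mef2c), against 8.43% of all genes. Between replicates, the root mean square SD of the members was 0.606 for stimulated KO, 0.235 for stimulated WT, 0.510 for KO medium and 0.299 for WT medium arrays.

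Markers of other cells moved with the same arrays. Summed over 15 neutrophil markers, the level was 151.9 and 442.2 in stimulated KO cells, 146.1 and 143.3 in stimulated WT cells, 191 and 770.2 in KO medium and 255.6 and 171.3 in WT medium. Between 9 and 15 of the 15 were well above background on an array, with 14 and 15 on the KO replicate 2 arrays. T cell markers summed to 1026 and 875.2 in stimulated KO cells, 993.4 and 1043 in stimulated WT cells, 1205 and 883 in KO medium and 1128 and 1139 in WT medium. Erythroid and platelet markers, 9 of 10 on the array, summed to 18.99 and 161.8 in stimulated KO cells, 44.14 and 22.34 in stimulated WT cells, 19.11 and 152.6 in KO medium and 39.35 and 23.99 in WT medium, with 8 or 9 of the 9 well above background on an array. KO replicate 2 was thus the highest for neutrophil and for erythroid and platelet markers and the lowest for T cell markers in each condition. Such sums weigh bright probes most. Outside KO replicate 2 the neutrophil sum was mostly Csf3r. That marker was itself lowest on KO replicate 2 in each condition, at 6.63 stimulated and 6.76 in medium. The median of the 15 neutrophil markers relative to the WT medium mean was 3.07 and 4.19 on these arrays. The sum of the 16 monocyte, macrophage and dendritic cell markers lay between 173.8 and 214.4 on all 8 arrays. It was mostly Siglech, a plasmacytoid dendritic cell marker at 7.24 to 7.55, and 14 to 16 markers were well above background on an array. Csf1r, a receptor of macrophages, measured 1.32 and 3.55 in stimulated KO cells, 1.35 and 1.13 in stimulated WT cells, 1.63 and 3.85 in KO medium and 1.66 and 1.32 in WT medium, high on the KO replicate 2 arrays. The median of the 16 relative to the WT medium mean was 0.66 and 0.73 on the KO replicate 2 arrays, stimulated and in medium, and between -0.08 and 0.08 on the other 6 arrays. Which cells the shared transcripts came from was not tested. On KO replicate 1 alone, 25 of 31 members, 16 restricted and 9 shared, lay below both WT arrays in each condition, against 18.4% of all genes. Without both KO replicate 2 arrays the median difference of the 31 members was -0.49 in stimulated cells and -0.45 in medium, against -0.35 and -0.28 with them. Without these arrays the difference averaged over both conditions was -0.54 for Cd24a and -0.35 for Fcgr2b, against 0.66 and 0.69 with them, while Ms4a1 was at -1.10 without and -1.16 with them.

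**Figure D3:**
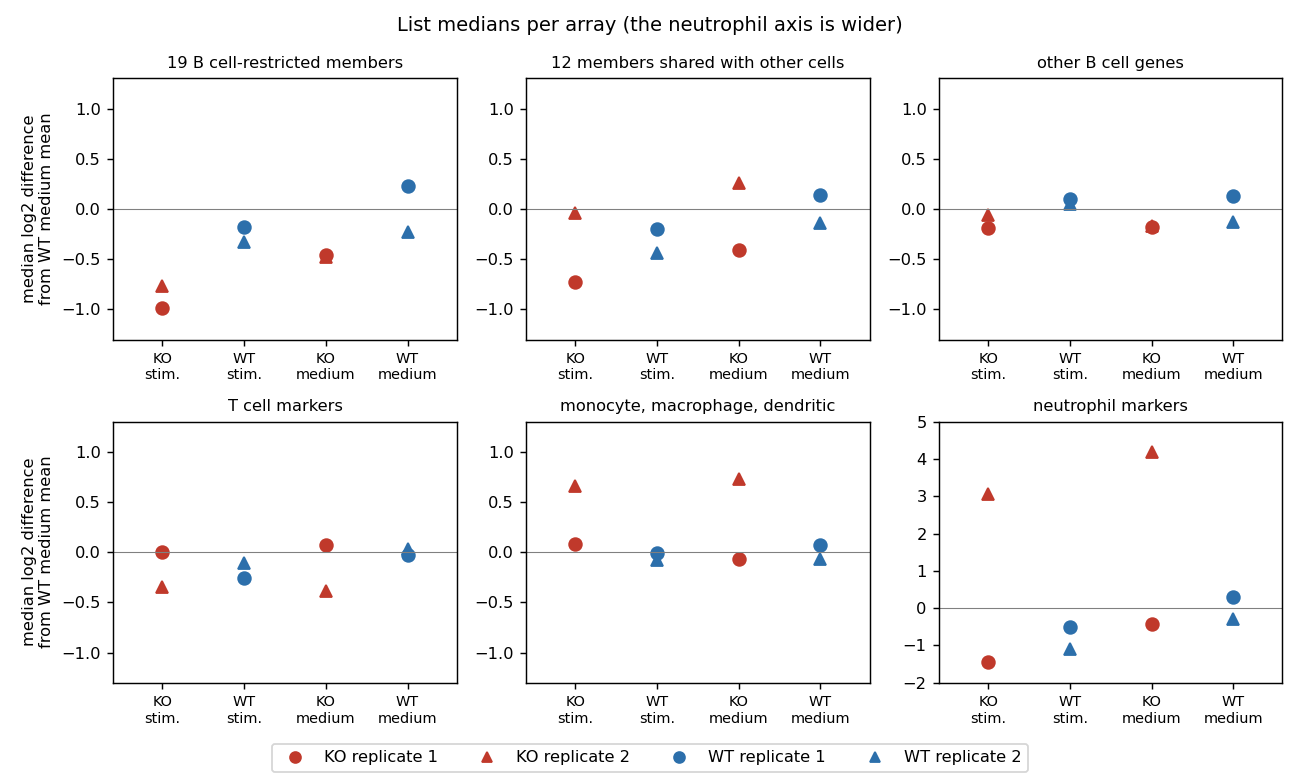
Median log2 difference of each marker list from the WT medium mean, 1 point per array, with KO left of WT and stimulated left of medium. The restricted B cell genes are at -0.99 and -0.76 in stimulated KO cells, -0.18 and -0.33 in stimulated WT cells, -0.45 and -0.47 in KO medium and 0.23 and -0.23 in WT medium, and the neutrophil median reaches 3.07 and 4.19 on the KO replicate 2 arrays.

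The second comparison asked how B cell transcripts differed between stimulated cells and cells in medium. Fcer2a was the 1 member that rose, in both genotypes. Fcrla fell in both genotypes, and Fcmr, Cd79b and Tnfrsf13b fell in KO cells. limma called 5 members in KO cells, against 8.13% of all genes, 1 higher and 4 lower, and 2 members in WT cells, against 10.3% of all genes, 1 higher and 1 lower. The shares of all genes by direction were 5.85% higher and 2.27% lower in KO cells and 6.42% higher and 3.83% lower in WT cells. At an unadjusted p below 0.05, 6 members differed in KO cells, against 25.4% of all genes, and 6 in WT cells, against 29.5%. The members thus differed at that level no more often than all genes.

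Fcer2a measured -1.91 and -2.17 in stimulated KO cells against -3.15 and -3.30 in KO medium. Stimulated WT cells had -1.19 and -1.82 against -2.82 and -3.23 in WT medium. All 4 stimulated values lay above all 4 medium values. It rose by 1.19 ± 0.25 in KO cells, 2.28-fold (limma, adjusted p = 0.0416), and by 1.52 ± 0.25 in WT cells, 2.86-fold (limma, adjusted p = 0.0205). Fcrla measured 0.29 and 0.36 in stimulated KO cells against 1.34 and 1.36 in KO medium. Stimulated WT cells had 0.95 and 0.82 against 2.21 and 1.70 in WT medium. The stimulated arrays lay lower in each genotype. Fcrla fell by 1.02 ± 0.18 in KO cells, 2.03-fold (limma, adjusted p = 0.0248), and by 1.07 ± 0.18 in WT cells, 2.11-fold (limma, adjusted p = 0.0215).

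Fcmr measured 1.40 and 0.92 in stimulated KO cells against 2.40 and 2.08 in KO medium. It fell by 1.08 ± 0.21 in KO cells, 2.12-fold (limma, adjusted p = 0.0339), and in WT cells the difference was -0.79 ± 0.21 (limma, adjusted p = 0.0682). Tnfrsf13b measured -0.93 and -1.06 in stimulated KO cells against -0.11 and -0.34 in KO medium. Stimulated WT cells had -0.58 and -0.58 against -0.10 and -0.06 in WT medium. Its stimulated values lay below its medium values in both genotypes. Tnfrsf13b fell by 0.77 ± 0.12 in KO cells, 1.70-fold (limma, adjusted p = 0.0187), and in WT cells the difference was -0.50 ± 0.12 (limma, adjusted p = 0.056). Its second probe gave similar differences in both genotypes, -0.55 in KO and -0.54 in WT cells. Cd79b, at 3.71 and 3.79 in stimulated KO cells against 4.45 and 4.62 in KO medium, fell by 0.78 ± 0.12, 1.72-fold (limma, adjusted p = 0.0183). In WT cells Cd79b differed by -0.28 ± 0.12 (limma, adjusted p = 0.193).

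These calls depended on single arrays. In KO cells no member was called without KO stimulated replicate 2 or without KO medium replicate 1, 1 (Tnfrsf13b) without KO medium replicate 2, 2 (Fcmr and Tnfrsf13b) without KO stimulated replicate 1, 2 (Cd79b and Fcer2a) without either stimulated WT array, and 3 (Cd79b, Fcrla and Tnfrsf13b) without either WT medium array. In WT cells no member was called without WT stimulated replicate 1 or WT medium replicate 1, Fcer2a alone without WT stimulated replicate 2, Fcrla alone without WT medium replicate 2, and Fcer2a, Fcrla and Fcmr without either stimulated KO array.

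Among members that did not pass, Blnk differed by -0.69 ± 0.21 in KO cells and -0.72 ± 0.21 in WT cells (limma, adjusted p = 0.109 and 0.086). Pou2f2 differed by -0.15 ± 0.15 in KO cells and -0.38 ± 0.15 in WT cells. Vpreb3 differed by -0.61 ± 0.32 and -0.72 ± 0.32. Ms4a1, with the strongest difference between genotypes, differed between stimulated cells and medium by 0.04 ± 0.25 in KO cells and 0.07 ± 0.25 in WT cells, and Pax5 by 0.06 ± 0.33 and 0.04 ± 0.33. Ebf1 differed by -0.35 ± 0.30 and -0.56 ± 0.30, and Spib by -0.41 ± 0.29 and -0.38 ± 0.29. None of these 7 passed the test in either genotype. The stimulated arrays lay below the medium arrays in both genotypes for 10 members, against 21.3% of all genes, and above them for 1, Fcer2a, against 17.9% of all genes. The median over the 31 members was -0.25 in KO cells and -0.29 in WT cells, and over all genes -0.08 and -0.09.

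**Figure D4:**
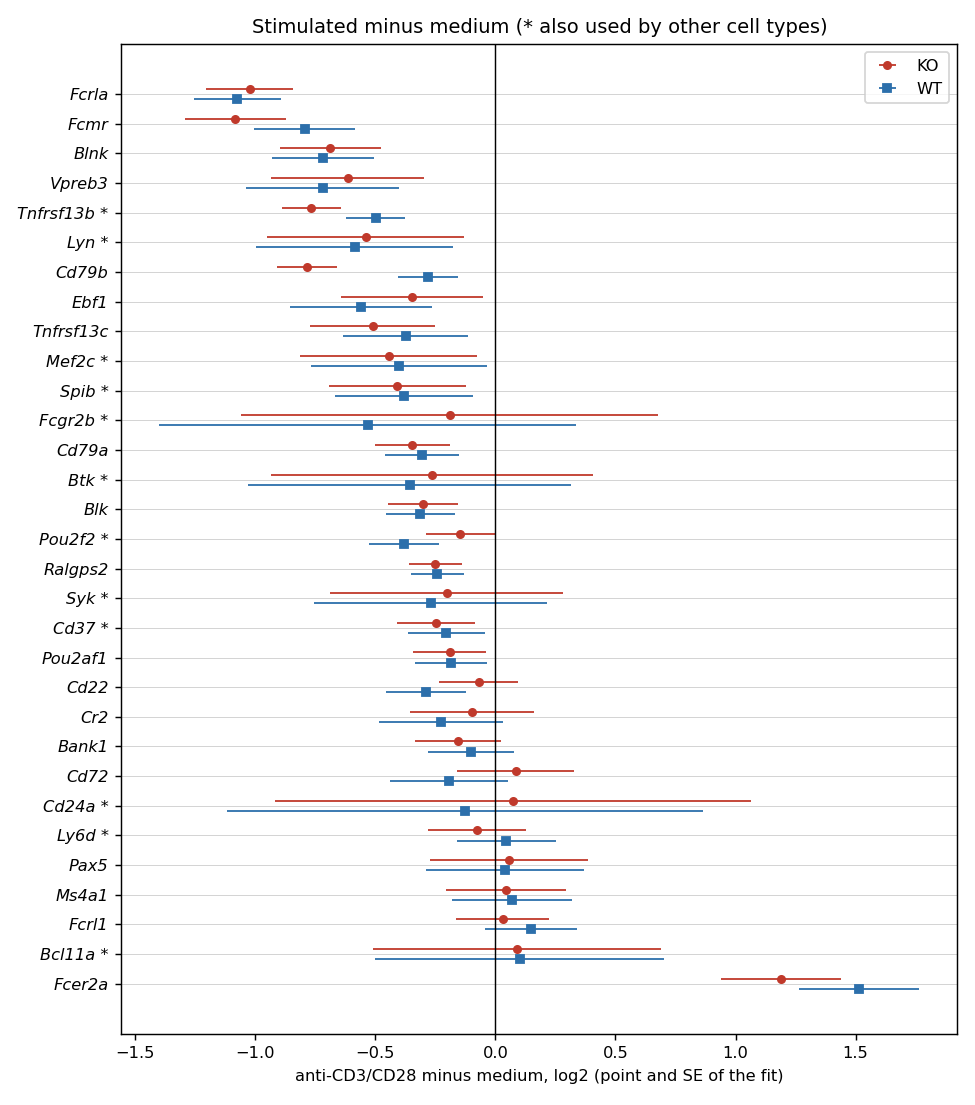
Stimulated minus medium log2 difference of each member, with the KO value above the WT value and bars of 1 standard error of the limma fit. Fcer2a lies at 1.19 in KO and 1.52 in WT cells, Fcrla at -1.02 and -1.07, and Ms4a1, Pax5 and Fcrl1 lie near 0.

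The third comparison asked whether the response to stimulation differed between KO and WT cells. limma called 0 members, against 0.00661% of all genes, and 1 member, Cd79b, had an unadjusted p below 0.05, against 3.01% of all genes. Cd79b had a response difference, KO minus WT, of -0.50 ± 0.18 (limma, unadjusted p = 0.0289, adjusted p = 1). The response difference was -0.32 ± 0.35 for Fcer2a, -0.29 ± 0.30 for Fcmr, -0.27 ± 0.17 for Tnfrsf13b and 0.05 ± 0.26 for Fcrla. With the second Tnfrsf13b probe it was -0.01. That Fcmr, Cd79b and Tnfrsf13b passed in KO cells and not in WT cells is therefore not shown to be a difference between genotypes. The median response difference was -0.01 over the 31 members and 0.02 over all genes.

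A second list of 22 B cell genes held none of the 31 members. limma called 0 of the 22 between genotypes in each condition, against 0.0198% of all genes in stimulated cells and 0.00661% in medium. At an unadjusted p below 0.05, 3 were lower in stimulated KO cells, against 2.37% of all genes, and 2 in KO medium, against 3.13%. In KO medium 1 gene, Fcrl5, was higher at that level, against 2.59% of all genes. Klhl14 is among the lower genes in both conditions. It passed the filter on dim probes only through WT medium, where it was high, so its place in these counts supports nothing further. The median difference of the 22 was -0.13 in stimulated cells and -0.23 in medium. Of the 22, 15 and 14 were below 0, against 59.1% and 60.2% of all genes.

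Between stimulated and medium cells, limma called 3 of the 22 in KO cells (2 higher, 1 lower), against 8.13% of all genes, and 4 in WT cells (3 higher, 1 lower), against 10.3% of all genes. Cd40, a costimulatory receptor of B cells and dendritic cells, rose by 3.08 ± 0.42 in KO cells and 2.80 ± 0.42 in WT cells (limma, adjusted p = 0.0116 and 0.0159). Irf8, a transcription factor of B cells and myeloid cells that activated T cells also express, rose by 2.34 ± 0.36 and 2.70 ± 0.36 (limma, adjusted p = 0.0172 and 0.012). Swap70, a signalling protein of activated B cells, rose by 1.12 ± 0.23 in WT cells (limma, adjusted p = 0.0362). In KO cells Swap70 differed by 0.72 ± 0.23 (limma, adjusted p = 0.116), and the response difference, KO minus WT, was -0.39 ± 0.32 (limma, adjusted p = 1). Klhl14 was not well above background on any stimulated array. It was at least 1.25-fold lower in stimulated KO cells, with 1 of 2 KO medium arrays above background, and at least 4.31-fold lower in stimulated WT cells, with both WT medium arrays above background (limma, adjusted p = 0.0402 and 0.0205). Klhl14 passed the filter on dim probes only through WT medium, where it was high, so its calls describe that group and support nothing further. These bounds set each stimulated array at the lowest signal well above background, or at the probe's own signal where that was higher.

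Genes named for later B cell stages are also used by activated T cells and other leukocytes. Of 10 plasma cell genes listed, Irf4, a factor of plasma cells and of activated T cells, rose by 4.07 ± 0.14 in KO cells and 4.02 ± 0.14 in WT cells (limma, adjusted p = 0.00037 and 0.000271). Xbp1, a factor of the secretory pathway, fell by 0.77 ± 0.14 in KO cells and 0.64 ± 0.14 in WT cells, and Sdc1, the plasma cell surface protein CD138, fell by 1.34 ± 0.18 and 0.97 ± 0.18 (limma, adjusted p from 0.0112 to 0.0417). Of 8 genes of germinal centre and activated B cells, 7 were tested. Cd83, a surface protein of activated B cells and dendritic cells, rose by 1.65 ± 0.20 in KO cells and 1.58 ± 0.20 in WT cells, and Cd86, a costimulatory ligand, rose by 1.01 ± 0.18 and 0.96 ± 0.18 (limma, adjusted p from 0.00823 to 0.03). Fas, a death receptor, rose 1.99-fold in KO cells (limma, adjusted p = 0.0409), and was 1.58-fold higher in WT cells, where it did not pass (limma, adjusted p = 0.0985). Of 6 B cell precursor genes, 4 were tested. limma called 0 in either genotype, against 8.13% of all genes in KO cells and 10.3% in WT cells. At an unadjusted p below 0.05, 1 differed in each genotype, against 25.4% and 29.5% of all genes.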

How the data were processed

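Cy3-labelled RNA of 8 samples was hybridised to one-colour Agilent arrays, 1 sample per array. The deposited files give linear intensities per spot, per the file headers from version 10.7.1.1 of Agilent's Feature Extraction, with a processed signal from which that program has subtracted background. The series' deposited value table holds the median intensity. Each array has 62976 spots, of which 3671 are controls. The 75th percentile of the processed signal lay between 1200.5 and 1469.0, and 58.4% to 69.3% of probes exceeded background clearly (the scanner's well-above-background mark).

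From these values, log2 of the processed signal minus the array's 75th percentile was computed, without control spots and outlier spots, and spots of a probe were averaged. Accessions in the files, without versions, were matched to RefSeq names on GRCm38.p6, which named 26056 of 55681 probes; the file headers name the build mm9. A probe was kept if both arrays of some group marked it well above background, and the brightest probe stood for its gene, which gave 15133 genes. Another probe existed for 9 members.

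Genes were fitted with limma 3.58.1 in R 4.3.3, with data.table version 1.17.8, as 4 group means over 8 arrays, with 4 residual and 2.11 prior degrees of freedom, and 6 contrasts. Two-sided p-values were adjusted per contrast over all 15133 genes (Benjamini-Hochberg). The fit was tested on simulated data with 200 changed genes. The 18 alternative settings included normexp with an offset of 50 on the median and background signals, since the files used here hold no mean signal. The number of arrays limits the precision. No batch within the slide could be tested.

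Values on every array are given for members called in any contrast, for those with the lowest unadjusted p, for the 3 brightest and 3 dimmest probes, and for Cd79a, Cd79b, Ms4a1 and Pax5. Of the other B cell lists, called genes are named, and 1 gene is not reported here. The members, lists, tests and rules were chosen with earlier results of these data known, and lists have no test of their own.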

Additional observations from a re-analysis of the deposited data

How the results depend on the processing

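Between KO and WT cells, 0 members were called in medium, after stimulation, on average and in the response difference under every setting run, and no member median changed direction except that of the response difference. Leaving out each array in turn, the median of the 31 members ranged from -0.49 to -0.17 in medium, from -0.49 to -0.23 after stimulation and from -0.47 to -0.27 on average, and that of the response difference from -0.18 to 0.21. The ends at -0.49 in medium and 0.21 came without WT medium replicate 2. The count of members lower on every KO array in both conditions, a measure added after seeing the data, was 16, against 8.64% of all genes. It was 13 with normexp or the deposited value table and 12 with quantile normalization. Without both KO replicate 2 arrays it was 25, against 18.4% of all genes. With 1 KO array against 2 WT arrays the rule is easier to meet, so 25 and 16 cannot be set against each other.

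For stimulation in KO cells the 5 calls became 3 without a filter on dim probes, 1 with array weights, 0 in a fit of only the groups compared and 0 without both KO replicate 2 arrays, and 0 to 3 when each array was left out in turn. For stimulation in WT cells the 2 calls became 4 with normexp, with the deposited value table, in a fit of only the groups compared and without both KO replicate 2 arrays, 5 with array weights, and 0 to 3 when each array was left out. The median difference lay between -0.33 and -0.18 in KO cells and between -0.42 and -0.19 in WT cells over the arrays left out. Leaving out arrays leaves fewer degrees of freedom, and the cause of these changes was not tested.

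Over all genes, 1230 calls in KO cells became 833 without the filter, 687 with array weights, 38 in a fit of only the groups compared, 436 without both KO replicate 2 arrays and 366 to 1483 when each array was left out. The 1552 calls in WT cells became 3461 with array weights, 2709 in a fit of only the groups compared or without both KO replicate 2 arrays, 3003 without the filter and 199 to 1751 when each array was left out. The labels do not tie replicate numbers to animals. The deviations of same-numbered arrays from their group means correlated over genes at 0.743 between both KO groups and 0.162 between both WT groups. With the replicate number as a block, 5 members were called in KO and 3 in WT cells, and with a replicate block within genotype 7 in each (Blnk and Vpreb3 added in both genotypes, and Ebf1, Fcmr and Tnfrsf13b in WT cells), over all genes 2786 and 3521.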
